A study of Mus musculus with 12 samples.

Results

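The genes described here are 40 enzymes of the pentose phosphate pathway, serine synthesis, folate one-carbon metabolism, purine and pyrimidine synthesis and nucleotide salvage, listed by symbol and read from a table of 39179 Ensembl gene IDs. All 40 were matched to an ID, and 38 passed the filter on low counts. Expression was measured by RNA sequencing in T helper 1 (Th1) cells, the interferon-gamma-producing helper T cells, from WT mice and from mice labelled LDHA-KO, a knockout of lactate dehydrogenase A, with 2 libraries per genotype. All cells were primary T cells on the C57BL/6 background. Naive CD4+ cells had been stimulated through CD3 (5 µg/ml antibody on the plate) and CD28 (2 µg/ml) and grown for 3 days with IL-2 (100 U/ml), IL-12 (10 ng/ml) and antibody to IL-4 (10 µg/ml), in a medium that held glutamine, pyruvate and non-essential amino acids. They then received PMA (50 ng/ml) and ionomycin (1 µM) with GolgiStop, a block on protein secretion, over 4 h. How the Ldha allele was deleted, and in which cells, is not given in the sources used here. The labels do not tell whether replicate libraries stem from different mice or cultures. The p-values therefore rest on library-to-library spread that may be technical.

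These pathways turn glucose and amino acids into the building blocks of RNA and DNA. The oxidative steps of the pentose phosphate pathway make NADPH and ribulose 5-phosphate, the non-oxidative steps exchange pentose sugars with glycolysis, and PRPP synthetases activate ribose 5-phosphate for nucleotide assembly. Serine made from a glycolytic intermediate donates carbon to folate in the mitochondrion and the cytosol, and that carbon enters the purine ring and thymidylate. T cells are known to switch these pathways on when they leave rest and begin to divide. Lactate dehydrogenase A stands at the far end of glycolysis, where it regenerates NAD+ from NADH, the same pair of cofactors that the first enzyme of serine synthesis uses.

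Library totals ranged from 919741 to 1293178 counts, so that 1 count was worth 0.773 to 1.09 CPM (counts scaled to a common library size). Ldha counts were 1055 and 1006 in WT but 42 and 53 after its knockout, and both LDHA-KO libraries matched their label. The T cell marker list was present in all libraries, at 2081 and 2164 summed CPM in WT and 1912 and 1899 in LDHA-KO. Of its 10 tested genes 2 were called higher and 4 lower, where 15.6% and 15.4% of all tested genes were. Summed markers in WT and LDHA-KO stood at 1.58 to 5.36 and 3.39 to 7.93 CPM for CD8 T cells, 7.91 to 10.7 and 4.52 to 8.81 for B cells, 0 to 0.791 and 1.76 to 2.26 for NK cells, and 8.70 to 15.3 and 9.69 to 10.2 for dendritic cells. The erythroid sum was lower in LDHA-KO, at 16.1 and 14.2 CPM against 1.13 and 6.16, with 5 of its 6 markers at 0 in every library and the remaining one called lower. That marker passed the filter through WT alone, so little can be read from its call. The myeloid sum was higher in LDHA-KO, at 334 and 333 CPM against 397 and 412. It came mainly from Csf1r, the only one of its 8 markers tested, which was called higher (log2 fold change 0.29), while Adgre1, Lyz2 and Mpo were at 0 in every library. The part of these cell types in the members' values was not tested. Of 5 tested Th1 markers 3 were called lower and 0 higher, beside 15.4% and 15.6% of all tested genes. The summed level of the 6 listed was 2004 and 2006 CPM in WT against 677 and 664 in LDHA-KO. Neither a strand-specific kit nor a strand setting for counting is given in the sources used here, which limits what every member's count means. Some values, chosen after they were seen, bear on this. Phykpl, which shares 3165 bp with Hnrnpab on the opposite strand, held 13016 counts in WT replicate 1 where Hnrnpab held 2569. Gapdh, a gene known for high expression, held 14 counts there. In the mitochondrial genome, mt-Nd6, which is encoded on the other strand from mt-Co1, held 736 counts against 297. A gene on the opposite strand overlapped 34.5% of all tested genes with a known strand, 50% of the 20 most abundant and 10 of the 38 members with a known strand. Overlapping genes of unknown strand were not counted, so these shares may be too low. If the counted strand was not that of the transcripts, all values here, also those of members with no overlap, would count reads antisense to the gene, and this was not tested. Levels and changes below are of deposited counts in that sense.

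Between LDHA-KO and WT, 9 of the 38 tested members passed the threshold of 0.05 on the adjusted p, with 5 of them higher and 4 lower (edgeR quasi-likelihood test, Benjamini-Hochberg adjustment over 9914 genes). Passing it is referred to as being called. That is 23.7% of the tested members, where 31.0% of all tested genes were called, 15.6% higher and 15.4% lower. The share of members called was below that of all genes. Its median log2 fold change was 0.05, with 19 members above 0 and 19 below, beside a median of -0.01 over all tested genes. The called rises were 0.36 to 0.80 on the log2 scale and the called falls 0.38 to 0.58 in size. Libraries of the genotypes did not overlap for 14 members that were higher and 11 that were lower in LDHA-KO, 25 of 38. Over all tested genes the libraries did not overlap for 64.3%, with 31.8% higher and 32.6% lower. DESeq2, run on the same counts, called 1 member, Tkt, and 10.6% of its tested genes.

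**Figure D1:**
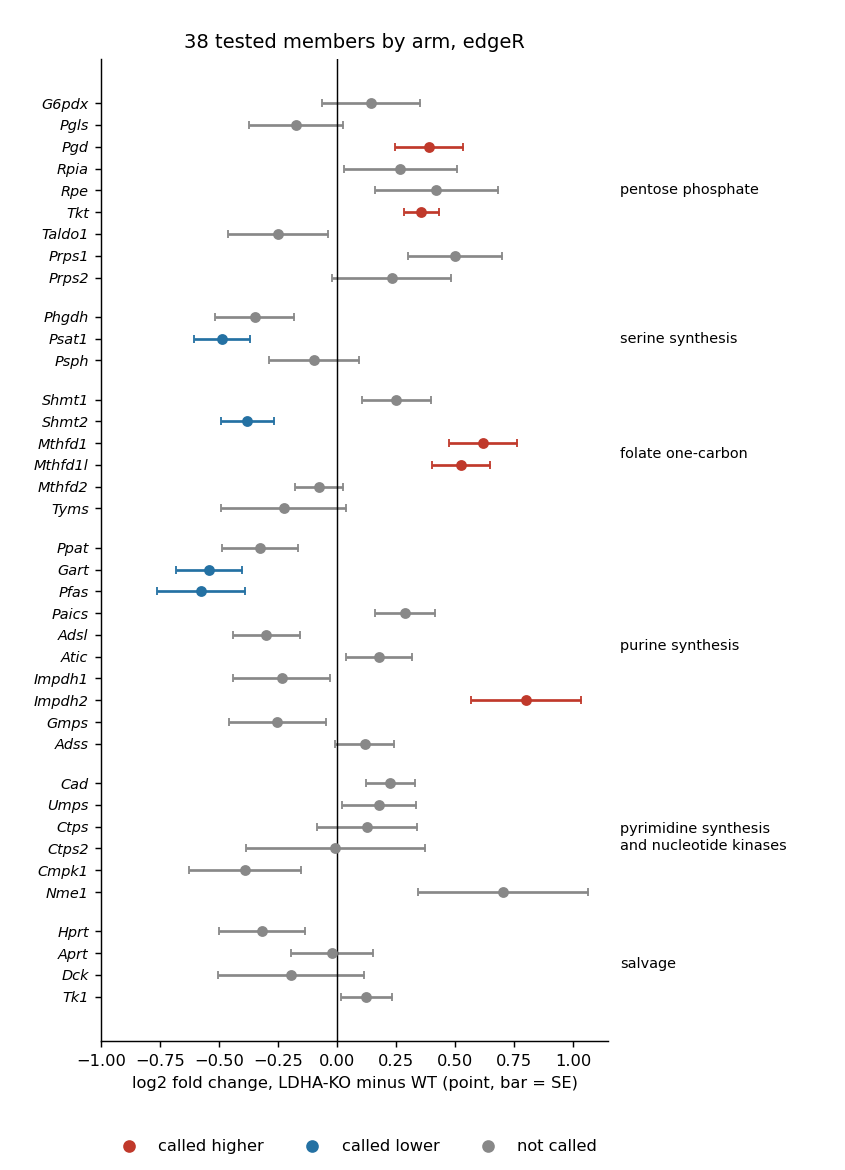
Log2 fold change of each of the 38 tested members (x axis, LDHA-KO minus WT, edgeR), grouped by arm, with bars for the SE; red and blue points are genes called higher and lower. The 5 red genes lie between 0.36 and 0.80 and the 4 blue genes between -0.38 and -0.58, and the grey genes cover 0.70 for Nme1 to -0.39 for Cmpk1.

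The arms' medians lay on either side of 0, and those of pyrimidine synthesis and of salvage changed sign when 1 library was left out (-0.0399 without LDHA-KO replicate 1 and 0.13 without WT replicate 2). The purine median was -0.037 without LDHA-KO replicate 2, and the folate median was 0.0035 with library totals alone. The pentose phosphate arm, with its PRPP synthetases, had a median of 0.27 and 7 of 9 members above 0, and serine synthesis had a median of -0.35 with 3 of 3 below 0. Folate one-carbon genes had a median of 0.09 with members called in both directions, and purine synthesis genes one of -0.24 with 6 of 10 below 0. The medians were 0.15 for pyrimidine synthesis and nucleotide kinases and -0.11 for salvage, in which no member was called. Called shares were 22.2% for pentose phosphate, 33.3% for serine, 50% for folate and 30% for purine synthesis, in groups of 3 to 10 tested genes, against the 31.0% of all genes. The differences between arms were not tested.

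**Figure D2:**
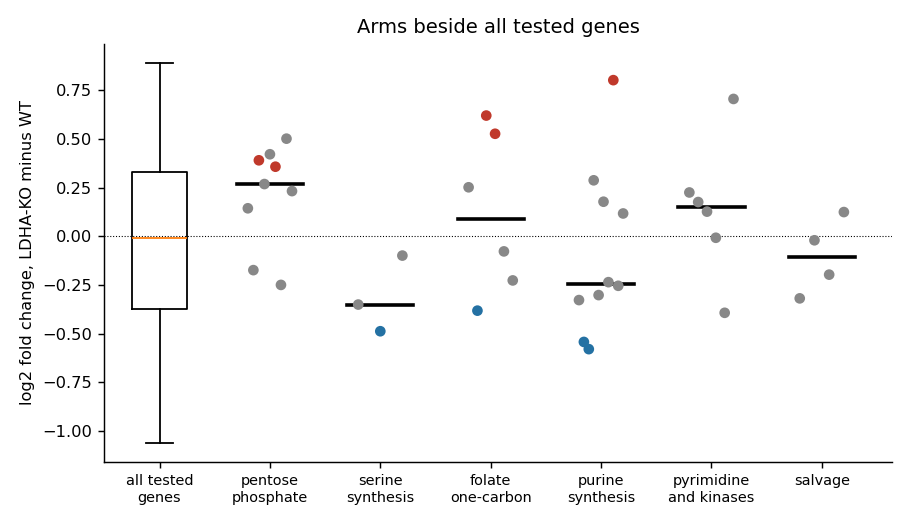
Log2 fold change (y axis, LDHA-KO minus WT) of the tested members of each arm (points; red called higher, blue called lower, grey not called) with the arm's median as a black bar; the box shows all 9914 tested genes, with quartiles at -0.37 and 0.33 and whiskers at the 5th and 95th percentiles. The pentose phosphate median (0.27) and the serine median (-0.35) lie on opposite sides of 0, within the quartiles of all genes.

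In the pentose phosphate pathway, transketolase and one oxidative enzyme were higher in LDHA-KO. Tkt (ENSMUSG00000021957, chromosome 14, 30549131 to 30574724, GRCm38.p6) encodes transketolase, which moves carbon between sugar phosphates in the non-oxidative branch. Tkt stood at 493 and 437 CPM in the WT libraries and at 594 and 598 CPM in the LDHA-KO libraries. The LDHA-KO libraries lay close together and above both WT libraries. Its mean rose from 465 ± 39.2 to 596 ± 3.06 CPM (SD of 2 libraries each), with a log2 fold change of 0.36 ± 0.07 (SE) and an edgeR adjusted p of 0.000175. Tkt kept its call under all 11 alternatives, with log2 fold changes of 0.27 to 0.45. In 4 of these a library was left out, so that the lone library of its genotype was assumed to vary like the pair of the other.

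Pgd (chromosome 4, 149149991 to 149166705) encodes 6-phosphogluconate dehydrogenase, which releases ribulose 5-phosphate and NADPH. It had 73.5 and 86.2 CPM in WT and 109 and 101 CPM in LDHA-KO, with no overlap, and rose on the log2 scale by 0.39 ± 0.15 (SE; edgeR adjusted p = 0.0371). The call was marginal: it held under 2 of 11 alternatives. The other 2 oxidative enzymes overlapped between genotypes. G6pdx, the NADPH-forming entry enzyme, had a log2 fold change of 0.14 (95% interval -0.27 to 0.56), and the lactonase gene Pgls had -0.17 (-0.57 to 0.23). G6pdx lies wholly within Ikbkg, on the opposite strand, so its 47 to 66 counts are uncertain.

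The isomerase gene Rpia and the epimerase gene Rpe, which interconvert pentose phosphates, had values of 0.27 and 0.42, and neither was called (edgeR adjusted p = 0.426 and 0.232). Taldo1, for transaldolase, the partner of transketolase in the same branch, had -0.25 (95% interval -0.68 to 0.18). All 3 of these genes had libraries that did not overlap, as did 64.3% of all tested genes. Taldo1 was lower where Rpia and Rpe were higher. Prps1 and Prps2 encode PRPP synthetases, which supply the activated ribose of all nucleotides. Prps1 stood at 39.8 and 36.4 CPM in WT and 55.4 and 52.8 CPM in LDHA-KO, just outside the threshold (log2 fold change 0.50, SE 0.20, edgeR adjusted p = 0.0507), and passed it under 1 of 11 alternatives, DESeq2 size factors in edgeR (adjusted p = 0.0479). The others gave adjusted p = 0.0595 to 0.497. Prps2 had 0.23 (SE 0.25, edgeR adjusted p = 0.531).

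**Figure D3:**
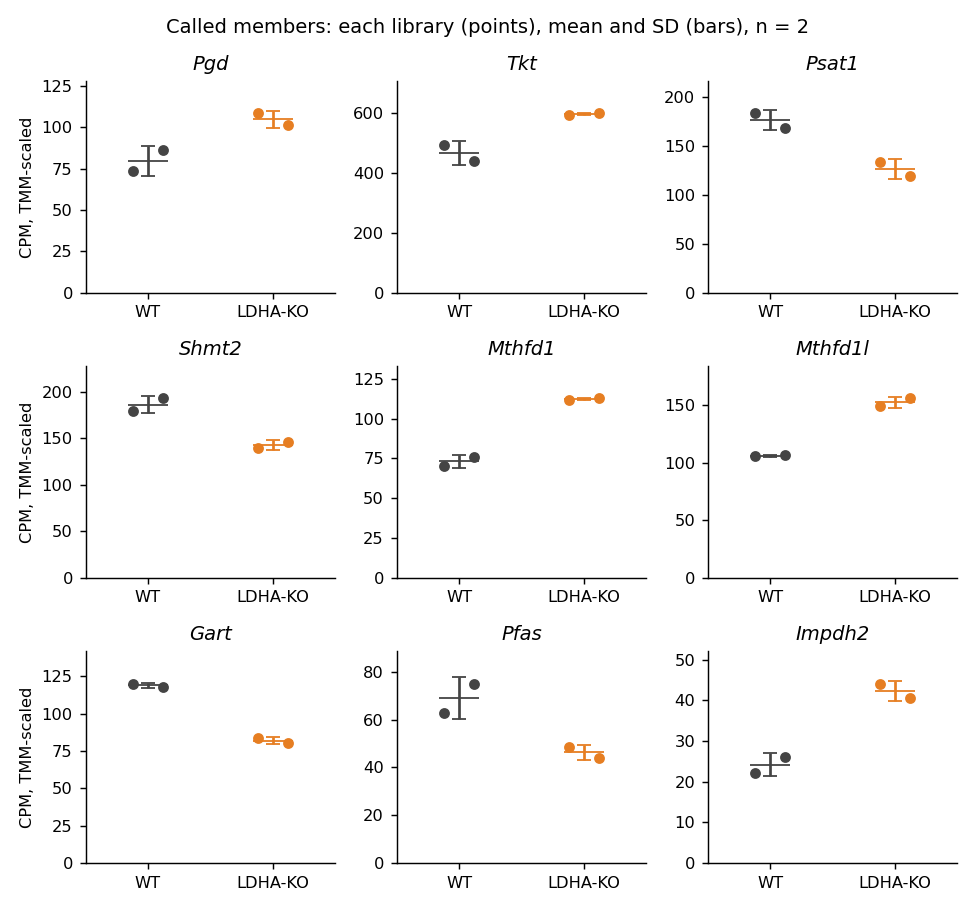
Level (y axis, TMM-scaled CPM from 0) of the 9 called members in each library (points) by genotype, with the mean and SD of 2 libraries. In every panel the 2 LDHA-KO points lie on one side of both WT points, from Impdh2 (22.2 and 26.1 against 44.1 and 40.5 CPM) to Tkt (493 and 437 against 594 and 598 CPM). These genes were chosen by their calls on the same libraries, and 64.3% of all tested genes had no overlap either.

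Serine synthesis branches off glycolysis at 3-phosphoglycerate. Psat1 (ENSMUSG00000024640, chromosome 19, 15905123 to 15925059) encodes the transaminase of the second step. It had 183 and 168 CPM in WT against 133 and 119 CPM in LDHA-KO. Psat1 fell by 0.49 on the log2 scale, from 176 ± 10.2 to 126 ± 10.3 CPM (SD, n = 2 each; SE 0.12, edgeR adjusted p = 0.00135). Without LDHA-KO replicate 2 the value was -0.39 (adjusted p = 0.0725), and DESeq2 gave -0.48 (adjusted p = 0.146).

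Phgdh, the dehydrogenase that commits carbon to serine, had 76.5 and 77.5 CPM in WT and 58.8 and 61.6 CPM in LDHA-KO. These libraries were apart by more than their spread, but the gene was not called (log2 fold change -0.35, SE 0.17, edgeR adjusted p = 0.108). Psph, the phosphatase of the last step, had 68.1 and 48.2 CPM in WT and 53.1 and 55.5 CPM in LDHA-KO, a spread within WT that covered the LDHA-KO values (-0.10, 95% interval -0.48 to 0.29). Psph overlaps the chaperonin gene Cct6a by 88 bp on the opposite strand.

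Folate genes moved in opposite directions within the same compartment. Shmt2 (chromosome 10, 127517123 to 127522444) encodes the mitochondrial serine hydroxymethyltransferase, which passes a carbon of serine to folate. Its libraries read 180 and 193 CPM in WT and 139 and 146 CPM in LDHA-KO. Shmt2 fell by 0.38 (SE 0.11, edgeR adjusted p = 0.00778), a call lost in DESeq2 (-0.38), without LDHA-KO replicate 1 (-0.34) and without WT replicate 2 (-0.33). The gene of the cytosolic isozyme, Shmt1, had 91.1 and 76.7 CPM in WT and 99.5 and 100.4 CPM in LDHA-KO and was not called (0.25, SE 0.15, edgeR adjusted p = 0.195).

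Mthfd1 (ENSMUSG00000021048, chromosome 12, 76254406 to 76319820) encodes the cytosolic trifunctional enzyme that interconverts the one-carbon folates. It had 70.4 and 75.9 CPM in WT and 112 and 113 CPM in LDHA-KO. Mthfd1 rose from 73.2 ± 3.90 to 112 ± 0.553 CPM (SD of 2 libraries each), with a log2 fold change of 0.62 ± 0.14 (SE) and an edgeR adjusted p of 0.000812. Mthfd1l (chromosome 10, 3972892 to 4167081) encodes the mitochondrial enzyme that releases formate for export to the cytosol. Its values were 106 and 107 CPM in WT and 149 and 156 CPM in LDHA-KO, a rise of 0.53 (SE 0.12, edgeR adjusted p = 0.000969). Both calls held under 10 of 11 alternatives; DESeq2 gave adjusted p = 0.120 for each. Each gene overlaps predicted noncoding genes on the opposite strand, 2 for Mthfd1 and 1 for Mthfd1l.

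Mthfd2 encodes the mitochondrial dehydrogenase and cyclohydrolase that works between SHMT2 and MTHFD1L. Its levels, 210 and 241 CPM in WT and 232 and 199 CPM in LDHA-KO, overlapped (log2 fold change -0.08, 95% interval -0.29 to 0.13, edgeR adjusted p = 0.614). The 3 consecutive mitochondrial genes thus had a fall, no call and a rise. Tyms, for thymidylate synthase, which uses folate carbon to make dTMP, had 19 to 42 counts per library and a value of -0.23 (SE 0.26, edgeR adjusted p = 0.556).

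Purine synthesis builds inosine monophosphate (IMP) on PRPP in a chain of reactions carried out by 6 enzymes of the list. The genes of this chain did not move together: 2 were called lower, and the other 4 were not called, 2 of them with negative and 2 with positive values. Gart (ENSMUSG00000022962, chromosome 16, 91621395 to 91646972) encodes a trifunctional enzyme that takes part in early steps and adds a formyl group from folate. It had 120.1 and 118 CPM in WT and 83.7 and 80.1 CPM in LDHA-KO, falling by 0.54 (SE 0.14, edgeR adjusted p = 0.00241). The replicates of each genotype lay within a few CPM of each other. Gart lost its call without LDHA-KO replicate 2 (-0.50) and in DESeq2 (-0.54, adjusted p = 0.191). Pfas (chromosome 11, 68985701 to 69008460) encodes the amidotransferase of the step between GART activities. Pfas had 62.7 and 75.1 CPM in WT and 48.6 and 44.0 CPM in LDHA-KO and fell by 0.58 (SE 0.19, edgeR adjusted p = 0.0148). Its call was lost without LDHA-KO replicate 2 (-0.49), without WT replicate 2 (-0.45), after thinning (-0.45) and in DESeq2 (-0.57).

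Ppat, for the amidotransferase that commits PRPP to purines, had 87.2 and 79.1 CPM in WT and 63.3 and 68.7 CPM in LDHA-KO (log2 fold change -0.33, SE 0.16, edgeR adjusted p = 0.121). Adsl, for adenylosuccinate lyase, which acts in the chain and again on the way to AMP, had 108 and 102 CPM against 87.1 and 83.6 CPM (-0.30, SE 0.14, edgeR adjusted p = 0.104). In each of them the LDHA-KO libraries lay below the WT libraries, as they did for 32.6% of all tested genes. Paics encodes the bifunctional enzyme that follows the GART and PFAS steps, and had 122 and 119 CPM in WT and 125 and 164 CPM in LDHA-KO. Its LDHA-KO libraries were unlike each other, and the value of 0.29 (SE 0.13, edgeR adjusted p = 0.0853) became 0.07 without LDHA-KO replicate 2 and 0.46 (adjusted p = 0.0153) without LDHA-KO replicate 1. Atic, which closes the purine ring, overlapped between genotypes (0.18, SE 0.14, edgeR adjusted p = 0.366).

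Ppat and Paics start head to head on chromosome 5 and their annotated bodies share 277 bp on opposite strands, where their reads cannot be told apart without strand. The sequence at their starts is therefore shown with that of Impdh2, the member with the largest called rise. The windows are from RefSeq (GRCm38.p6), cover 250 bases before to 50 after each annotated start, and are written in the direction of the gene. Paics lies at chr5:76951052-76951351 on the plus strand, Ppat at chr5:76951529-76951828 on the minus strand and Impdh2 at chr9:108560186-108560485 on the plus strand. Capitals mark CACGTG, the E-box that MYC, USF and related factors are known to bind.
Paics: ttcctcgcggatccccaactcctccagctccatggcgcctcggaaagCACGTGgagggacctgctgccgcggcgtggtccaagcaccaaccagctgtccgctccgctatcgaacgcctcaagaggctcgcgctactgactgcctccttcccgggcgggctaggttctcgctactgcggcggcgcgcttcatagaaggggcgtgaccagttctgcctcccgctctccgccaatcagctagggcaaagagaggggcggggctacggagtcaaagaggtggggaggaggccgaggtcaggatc
Ppat: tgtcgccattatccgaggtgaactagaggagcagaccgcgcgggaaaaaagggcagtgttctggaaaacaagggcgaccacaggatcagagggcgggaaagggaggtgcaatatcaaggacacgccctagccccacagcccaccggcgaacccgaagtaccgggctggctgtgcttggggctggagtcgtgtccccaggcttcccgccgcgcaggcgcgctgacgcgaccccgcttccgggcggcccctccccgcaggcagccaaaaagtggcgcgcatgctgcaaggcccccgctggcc
Impdh2: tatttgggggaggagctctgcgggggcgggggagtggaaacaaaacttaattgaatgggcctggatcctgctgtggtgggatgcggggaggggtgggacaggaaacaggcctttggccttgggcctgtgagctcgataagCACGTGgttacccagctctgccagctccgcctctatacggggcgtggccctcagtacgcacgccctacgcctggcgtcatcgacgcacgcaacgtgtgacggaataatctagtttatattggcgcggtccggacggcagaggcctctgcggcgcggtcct

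The E-box begins 203 bases before the annotated start in Paics and 110 bases before it in Impdh2, and these letters are not in the Ppat window. The Paics window lies within the annotated body of Ppat, so its E-box is also inside Ppat, after the start of that gene. The 177 bases between the Paics and Ppat windows are not shown. Searched on both strands, CACGTG, which is its own reverse complement, was found in 6 of 46 windows of the members (13.0%), those of Atic, Impdh2, Nme1, Paics and Tyms, and in 7.15% of all 32851 windows. TGATGNAA, a form of the element bound by ATF4 with C/EBP factors, was found in 1 member window, that of Prps1 (2.17%), and in 3.97% of all windows. The 5 genes with CACGTG hold 1 called gene, Impdh2, where 31.0% of all tested genes were called. Whether the motifs, Myc or Atf4 bear on the members' values was not tested. Myc itself stood at 400.2 and 420 CPM in WT and 426 and 529 CPM in LDHA-KO (log2 fold change 0.23, SE 0.08, edgeR adjusted p = 0.0283). Atf4 had 0.03 (SE 0.08, edgeR adjusted p = 0.839).

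From IMP the pathway divides toward GMP and AMP. Impdh2 (ENSMUSG00000062867, chromosome 9, 108560436 to 108565577) encodes an IMP dehydrogenase, the NAD+-dependent and rate-limiting enzyme of GMP synthesis, and showed the largest called change of the set. Its counts were 29 and 33 for WT and 39 and 46 for the smaller LDHA-KO libraries, or 24.1 ± 2.76 and 42.3 ± 2.54 CPM (SD, n = 2 each). Impdh2 rose by 0.80 (SE 0.23, edgeR adjusted p = 0.00728), and lost its call without WT replicate 1 (0.69, adjusted p = 0.0650) and in DESeq2 (0.81). The gene of the other isozyme, Impdh1, had 47.4 and 48.2 CPM in WT and 46.4 and 36.1 CPM in LDHA-KO (-0.24, 95% interval -0.65 to 0.18). Gmps, for GMP synthetase, ranged from 37.9 to 65.6 CPM with overlap (-0.25, SE 0.21), and Adss, for adenylosuccinate synthetase on the AMP side, from 122 to 153 CPM with overlap (0.12, SE 0.13).

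Within pairs of isozymes or neighbouring enzymes, the share of the pair's counts in each library does not depend on library scaling. Only its difference between libraries can be read, since a gene's length also sets its share. Impdh2 took 31.9% and 35.1% of the counts of Impdh2 and Impdh1 in WT and 48.8% and 52.9% in LDHA-KO. Shmt2 took 66.4% and 71.6% of the counts of Shmt2 and Shmt1 in WT and 58.3% and 59.3% in the knockout. Mthfd1l took 33.4% and 30.7% of the counts it shares with Mthfd2 in WT and 39.2% and 43.9% in LDHA-KO.

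For Paics and Ppat, the share of Paics was 58.2% and 60% in WT and 66.5% and 70.5% in LDHA-KO. For Prps1 and Prps2 the share of Prps1 was 59.8% and 60.5% in WT and 65.3% and 63.8% in the knockout. In these 5 pairs the genotypes' shares did not overlap, but in each of them the exact 95% binomial interval of at least 1 WT library overlapped that of an LDHA-KO library. For Impdh2 the intervals were 22.5% to 42.5% in WT replicate 1 and 37.4% to 60.2% in LDHA-KO replicate 1. The share of Ctps in Ctps and Ctps2 overlapped between genotypes, at 74.6% to 82.3%. With 2 libraries against 2, the smallest two-sided p that an exact permutation test can give is 0.333, so the shares were not tested. The intervals cover counting error only. The shares come from the same counts as the fold changes above and are no separate evidence. How often the shares of other gene pairs did not overlap was not counted.

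**Figure D4:**
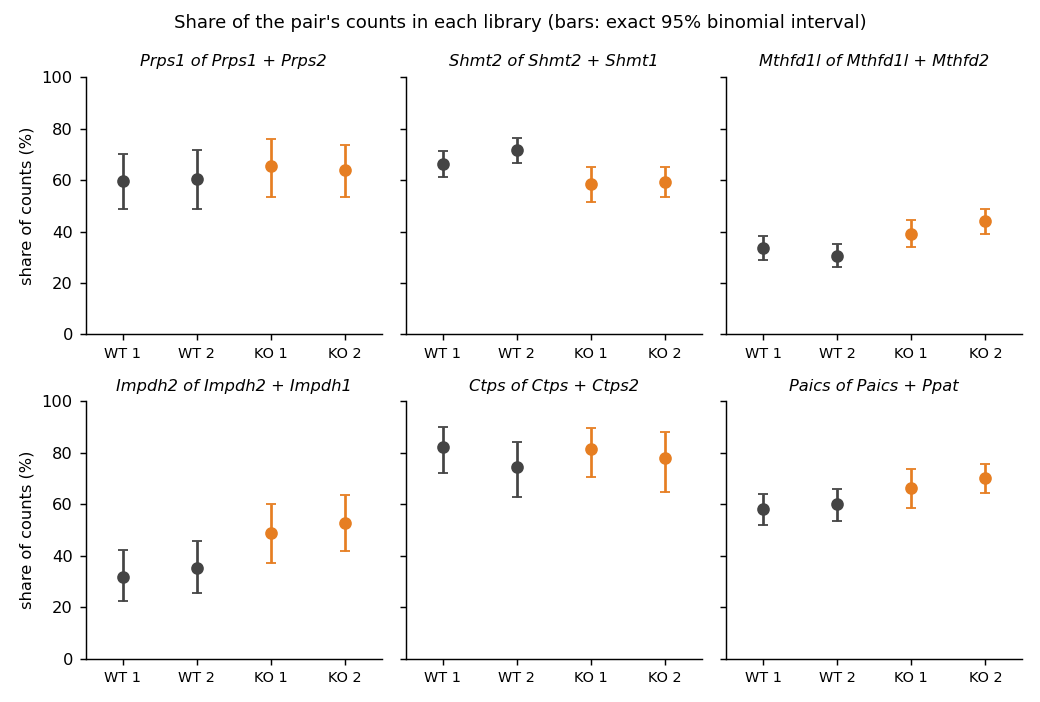
Share of the named gene in the summed counts of a pair (y axis, percent) in each of the 4 libraries (x axis; grey WT, orange LDHA-KO), with exact 95% binomial intervals. The share of Impdh2 goes from 31.9% and 35.1% in WT to 48.8% and 52.9% in LDHA-KO, and that of Ctps overlaps.

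No pyrimidine synthesis gene was called. Cad, which encodes the enzyme that opens the pathway with its carbamoyl phosphate synthetase activity, had 174 and 186 CPM in WT and 213 and 209 CPM in LDHA-KO, higher in both LDHA-KO libraries (log2 fold change 0.22, SE 0.10, edgeR adjusted p = 0.0961). Umps, for the enzyme that completes UMP, had 72.7 and 71.96 CPM against 84.8 and 79.2 CPM (0.18, SE 0.16, edgeR adjusted p = 0.426). Dhodh, for the dehydrogenase that couples the pathway to the respiratory chain, held 6 to 10 counts per library and did not pass the filter. Ctps and Ctps2, for CTP synthetases, had 0.13 and -0.01, with 95% intervals of -0.30 to 0.56 and -0.78 to 0.76, and the LDHA-KO libraries of Ctps stood at 65.6 and 37.9 CPM.

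Among nucleotide kinases, Cmpk1, for the UMP-CMP kinase, had 35.2 and 36.4 CPM in WT and 28.3 and 26.4 CPM in LDHA-KO and was not called (-0.39, SE 0.24, edgeR adjusted p = 0.216). Nme1 and Nme2 encode nucleoside diphosphate kinases and lie next to each other on chromosome 11. Nme1 held 12 to 24 counts (0.70, SE 0.36, edgeR adjusted p = 0.138). Nme2 held 1 or 2 counts per library, under the limit of 3 counts that a count of 0 allows, and was not tested. Genes of similar sequence can lose reads to several map positions, and how such reads were treated is not given in the sources used here. Whether this bears on the counts of Nme1 and Nme2 was not tested.

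No salvage gene was called. Hprt, which recovers hypoxanthine and guanine, had 65.8 and 62.5 CPM in WT and 45.2 and 56.4 CPM in LDHA-KO, lower without overlap (-0.32, SE 0.18, edgeR adjusted p = 0.193). Aprt, which recovers adenine, had -0.02 (95% interval -0.37 to 0.33). Dck and Tk1 encode kinases that recover deoxynucleosides for DNA, and Tk1 is known to peak in S phase. Tk1 had 171 and 185 CPM in WT and 177 and 208 CPM in LDHA-KO (0.12, 95% interval -0.09 to 0.34), and Dck had -0.20 (95% interval -0.82 to 0.43). Of 20 tested S phase marker genes, 0 were called higher and 3 lower. Over all tested genes 15.6% were called higher and 15.4% lower. The S phase markers had a median log2 fold change of -0.04. Their summed levels were 2354 and 2381 CPM in WT and 2215 and 2249 CPM in LDHA-KO. Their part in the members' values was not tested. In bulk samples, fewer cells of a type and less RNA per cell cannot be told apart.

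The 29 members tested but not called had SEs of 0.10 to 0.38, and 6 of them had an unadjusted p under 0.05. Their 95% intervals reached down to -0.87, for Cmpk1, and up to 1.43, for Nme1, so a missed threshold does not show that a member's level was the same in both genotypes.

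Other genes of these pathways, from lists of 78 symbols, were called lower more often than higher. Of 49 tested, 6 rose and 13 fell, 38.8% against the 31.0% of all genes, with a median of -0.21. Rrm2b, Upp1 and Cth among the falls and Xdh among the rises passed the filter only through the genotype where they were high. Other such genes were not counted, so the filter limits what these tallies show. Over all tested genes 15.6% were called higher and 15.4% lower, the shares to set beside each list below. The difference was not tested. Among genes that supply deoxynucleotides, 1 of 8 rose and 2 fell. Dut, for the dUTPase that keeps uracil out of DNA, rose by 0.58 (SE 0.16, edgeR adjusted p = 0.00493), and Rrm2b, a ribonucleotide reductase subunit gene, was called lower with 12 and 17 counts in WT but 3 and 1 after knockout. It passed the filter through WT alone, and no fold is given at these counts. Among 3 other pentose phosphate and ribose genes, Prpsap1, for a protein that binds the PRPP synthetases, went from 52.8 and 53.8 CPM to 88.2 and 95.1 CPM (0.79, SE 0.16, edgeR adjusted p = 0.000208).

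Of 17 tested folate, glycine and serine genes outside the set, 1 rose and 5 fell. Cth, for the enzyme that makes cysteine from cystathionine, had the largest fall, from 35 and 44 counts to 7 and 14 (-1.55, SE 0.32, edgeR adjusted p = 0.000206). Its LDHA-KO libraries alone would not have passed the filter, since replicate 1 lay under the minimum count, so the size of the fall is uncertain. Srr, for serine racemase, rose by 0.33, but it overlaps Tsr1 by 5314 bp on the opposite strand and its count is uncertain. Among 12 purine genes 2 rose and 2 fell. Xdh, for the enzyme that makes uric acid, went from 5 and 12 counts to 14 and 28 (1.64, SE 0.40, edgeR adjusted p = 0.00158). The WT libraries of Xdh alone would not have passed the filter, so the size of its rise is uncertain. Gmpr2, for a GMP reductase, fell by 0.46 but overlaps Tinf2 by 5952 bp.

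Of 7 pyrimidine genes 1 rose and 3 fell. Uck1, for a uridine-cytidine kinase of salvage, went from 11 and 18 counts to 30 and 29 (1.37, SE 0.32, edgeR adjusted p = 0.000860). Upp1, for uridine phosphorylase, was called lower with 11 and 18 counts in WT but 2 and 3 after knockout, and it too passed the filter through WT alone. The nucleoside transporter gene Slc29a3 fell by 0.78 (SE 0.22, edgeR adjusted p = 0.00459), 1 of 2 transporters tested.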

How the data were processed

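RNA was sequenced from 4 libraries, 2 WT and 2 LDHA-KO; the other 8 samples of the series were not analysed here. The authors deposited raw counts per Ensembl gene ID in 1 table, whose columns name genotype and number but no assay. Since each value is a count for a gene, the columns were assigned to the RNA samples. Per the submitters' processing notes, HTSeq 0.6.0, STAR 2.3.0e, Trimmomatic 0.33, Bowtie2 2.2.6 and FastQC 0.11.2 were used in the study, in no stated order, on build mm10 (GRCm38). Not given in the sources used here are annotation release, strand setting and the handling of multiply mapped reads. Of 43374 rows, 4195 repeats of an ID, with identical values, were removed. Symbols came from an Ensembl table, positions, overlaps and promoters from RefSeq tables on GRCm38.p6; strand was known for 38 members.

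All genes were fitted with edgeR 4.0.16 in R 4.3.3 (quasi-likelihood F-test, TMM scaling, default filter with minimum count 10 and total 15, 9914 genes), with genotype as the single factor and Benjamini-Hochberg adjustment; CPM are TMM-scaled. SEs were derived from the F statistic. Replicates differed by little more than counting noise (chi-square of 1.15 and 1.22 per gene in WT and LDHA-KO) and were kept as 2 each. The spread between replicates beyond counting was fitted at a common coefficient of variation of 4.03%. The 11 alternatives covered scaling, filter, DESeq2 1.42.0, a replicate block, each library left out and thinning to the smallest total. All 40 members are named; of other pathway genes, the called gene with the largest rise and fall of each list is named. Members and lists were chosen with earlier results of these data known. Depth was low, and limits from it cover counting error only.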

Additional observations from a re-analysis of the deposited data

How the results depend on the processing

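No called member changed sign under any of the 11 alternatives, and 24 of their 99 values missed the threshold, 8 of them in DESeq2. The libraries of every called member lay apart by genotype, so leaving out a library could hardly have changed a sign. The kept signs are therefore no sign of stability. The members called, 9 at first, numbered 1 in DESeq2 and 5 to 8 with each library left out, the lowest without LDHA-KO replicate 2. A left-out library leaves 1 in its genotype, which is assumed to vary like the other genotype's pair, so these counts are no strong sign of stability. Over all genes, 3076 calls became 901 in DESeq2 and 1973 to 2412 with a library left out. With library totals alone, 38.3% of all calls were higher rather than 50.4%, the members' calls were 4 higher and 7 lower, all genes' median moved by -0.083, and with that shift Phgdh, Ppat and Adsl passed the threshold, and arm medians were -0.43 for serine synthesis, 0.0035 for folate and -0.19 for salvage. After thinning, the medians were -0.24 for serine synthesis and 0.034 for folate. Leaving out a library gave medians of 0.25 to 0.36 for pentose phosphate, -0.38 to -0.31 for serine synthesis, 0.078 to 0.18 for folate, -0.29 to -0.037 for purine synthesis, -0.0399 to 0.25 for pyrimidine synthesis and kinases, and -0.20 to 0.13 for salvage. The salvage median changed sign without WT replicate 2, and the pyrimidine median without LDHA-KO replicate 1.

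Among members not called, 10 changed sign under some alternative. With each library left out in turn, the log2 fold change ran from -0.058 to 0.38 for G6pdx, -0.35 to 0.026 for Pgls, -0.32 to 0.17 for Psph, -0.17 to 0.047 for Mthfd2, -0.037 to 0.35 for Atic, -0.57 to 0.0855 for Gmps, -0.27 to 0.52 for Ctps, -0.22 to 0.25 for Ctps2, -0.14 to 0.13 for Aprt and -0.51 to 0.19 for Dck. After thinning, Ctps2 had 0.079 and Aprt 0.067, and DESeq2 gave 0.014 for Ctps2. The cause was not tested.

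Both genotypes carry the replicate numbers 1 and 2, and no label ties a number to an animal or a day. Deviations of same-numbered libraries correlated at -0.0279 across genes, and no pairing was taken from them. With the replicate block, 8 members and 2803 genes were called; Pgd (0.39) alone among the members lost its call.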
